A study of Mus musculus with 33 samples.

Results

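The miR-30 family of microRNAs was described in the lungs of mice that received carbon black, or vehicle alone, through the trachea. Its members were the 5 miRNAs that the array names mmu-miR-30a, mmu-miR-30b, mmu-miR-30c, mmu-miR-30d and mmu-miR-30e without a star, out of 650 miRNAs on the array, 611 of them of mouse. Names and no measured value defined the members, but the family was chosen with earlier results of these data known. The mice were non-pregnant C57BL/6 females, an inbred laboratory strain, and the sources used here do not give their age. Each received a single instillation of 0.162 mg of Printex 90, nanoparticles of carbon black, or of the vehicle, salt water with acellular bronchoalveolar lavage fluid (BAL) added. Whole-lung RNA of each mouse was labelled with Cy3 and hybridised to its own 1-colour array. Vehicle controls numbered 6 on each of days 1, 3 and 28 after instillation, and exposed mice numbered 6 on day 1, 4 on day 3 and 5 on day 28.

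MicroRNAs are short RNAs that, loaded into an Argonaute protein, pair with messenger RNAs and lower their translation and stability. Pairing rests mainly on the seed, the bases from position 2 to position 8, so miRNAs that share a seed share many targets. The miR-30 family is abundant in lung and many other tissues. In human and mouse cells its members are known to restrain epithelial-to-mesenchymal transition, with the transcription factor Snail among their targets, and autophagy, with Beclin 1 among them.

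RefSeq's mature sequences on mouse build GRCm38 are shown for the members with an entry, 3 of 5, because they carry the shared seed (in capitals) and show how little separates miR-30a from miR-30e.
miR-30a-5p: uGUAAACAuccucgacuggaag
miR-30c-5p: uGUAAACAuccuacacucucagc
miR-30e-5p: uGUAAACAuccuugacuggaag
miR-384-5p: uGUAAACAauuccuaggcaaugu
All 4 lines have the seed GUAAACA, and among 1679 mature miRNA names in the RefSeq table these are the 4 that do. The members miR-30a, miR-30c and miR-30e were identical over their first 12 bases. Counted from 1 at the 5′ end, miR-30a and miR-30e differed by C13U alone, whereas miR-30c differed from each of them at 5 of the 22 bases compared. miR-384-5p, which is no member by name, parted from them at position 9. How far a probe for miR-30a takes up miR-30e, or the reverse, was not tested.

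The family's genes lie in pairs. Mir30a encodes miR-30a-5p at chr1:23272274-23272295 on the plus strand, and Mir30c-2 encodes miR-30c-5p at chr1:23291714-23291736 on the same strand, with 19361 bases between the hairpins. Mir30e encodes miR-30e-5p at chr4:120772660-120772681 on the minus strand, and Mir30c-1 a second copy of miR-30c-5p at chr4:120769584-120769606, with 2983 bases between the hairpins. In RefSeq's gene table both hairpins of the chromosome 4 pair lie within the span of Nfyc, which encodes a subunit of the transcription factor NF-Y. In each of the 3 pairs, Mir30b and Mir30d included, no other gene of that table lies between the partners. Since Mir30c-1 and Mir30c-2 give the same mature RNA, the signal of miR-30c cannot be divided between the pairs.

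The arrays were printed on 9 slides of which each held arrays of more than 1 group. Array brightness, the 75th percentile of the processed signal before scaling, ran from 187 to 1211, and its median was 365 in the controls and 666 in the exposed mice on day 1, 635 and 625 on day 3, and 985 and 481 on day 28. Of the 611 mouse miRNAs, 94 were above background on all 33 arrays and 171 on enough arrays to be tested. Lung markers were present: of the epithelial list 5 of 8 and of the fibroblast list 3 of 3 were above background on every array, while miR-124 and miR-9 of brain were above it on none. The 4 arrays of slide 1, control replicates 1 (day 1) and 2 (day 3) and exposed replicates 3 (day 1) and 4 (day 3), stood apart from the other 29 for this family, and the main results are given with and without them.

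All 5 members were above background on all 33 arrays. Levels below are log2 of the scaled signal, each from the member's brightest probe; a difference of 1 on this scale is a doubling, and levels of different members are not comparable because each has its own probe. miR-30a, which in human cells targets Beclin 1 and Snail, varied little. On day 1 its controls ran from 10.31 to 10.64 with a median of 10.44, and its exposed arrays from 10.23 to 10.62 with a median of 10.45. On day 3 its controls ran from 10.32 to 10.63 with a median of 10.42, and the 4 exposed arrays read 10.39, 10.32, 10.37 and 10.49. On day 28 its controls ran from 10.25 to 10.49 with a median of 10.31, and the 5 exposed arrays read 10.14, 10.27, 10.35, 10.04 and 10.44. Exposed and control arrays overlapped on every day. Exposed replicates 8 and 23 of day 28, at 10.14 and 10.04, lay below every control array of the series. So did exposed replicate 3 of day 1, at 10.23, just under the lowest control at 10.25. The spread of miR-30a within groups was the 5th lowest of 171 miRNAs tested (residual SD 0.12, against a median of 0.28). Its second probe did not share this low spread, with a residual SD of 0.31, or 0.18 without slide 1 (against a median of 0.23 there).

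miR-30b, encoded beside miR-30d, spread more widely. On day 1 its controls ran from 5.56 to 7.08 with a median of 6.70, and its exposed arrays from 5.62 to 7.16 with a median of 6.97. On day 3 its controls ran from 5.72 to 7.27 with a median of 6.96, and the 4 exposed arrays read 5.75, 6.83, 7.07 and 7.16. On day 28 its controls ran from 6.38 to 7.41 with a median of 6.86, and the 5 exposed arrays read 6.99, 6.74, 6.85, 6.91 and 7.31. The lowest value in each of the 4 groups of days 1 and 3 came from slide 1, and exposed and control arrays overlapped on every day.

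For miR-30c, the member made from both gene pairs, the day 1 controls ran from 6.28 to 7.88 with a median of 6.92 and the exposed arrays from 5.98 to 7.34 with a median of 7.20. On day 3 its controls ran from 6.37 to 7.46 with a median of 7.13, and the 4 exposed arrays read 6.15, 7.08, 7.24 and 7.43. On day 28 its controls ran from 6.66 to 7.45 with a median of 7.02, and the 5 exposed arrays read 6.80, 7.09, 7.26, 6.92 and 7.15. Again slide 1 gave the lowest array of each group on days 1 and 3, and the groups overlapped.

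miR-30d kept to a narrower band than miR-30b or miR-30c. On day 1 its controls ran from 7.04 to 8.24 with a median of 7.49, and its exposed arrays from 7.00 to 8.13 with a median of 7.62. On day 3 its controls ran from 7.02 to 7.89 with a median of 7.67, and the 4 exposed arrays read 7.07, 7.37, 7.84 and 7.81. On day 28 its controls ran from 7.17 to 7.86 with a median of 7.39, and the 5 exposed arrays read 7.17, 7.27, 7.55, 7.50 and 7.72. The day 28 exposed arrays lay within the range of their controls.

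miR-30e differs from miR-30a by a single base and is encoded within Nfyc. On day 1 its controls ran from 5.38 to 6.96 with a median of 6.68, and its exposed arrays from 5.63 to 7.06 with a median of 6.87. On day 3 its controls ran from 5.57 to 7.22 with a median of 6.82, and the 4 exposed arrays read 5.72, 6.58, 6.93 and 6.92. On day 28 its controls ran from 6.47 to 7.04 with a median of 6.76, and the 5 exposed arrays read 6.62, 6.50, 6.81, 6.56 and 6.84. Exposed and control arrays of miR-30e overlapped on every day, and its group means ranged over 0.23.

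**Figure D1:**
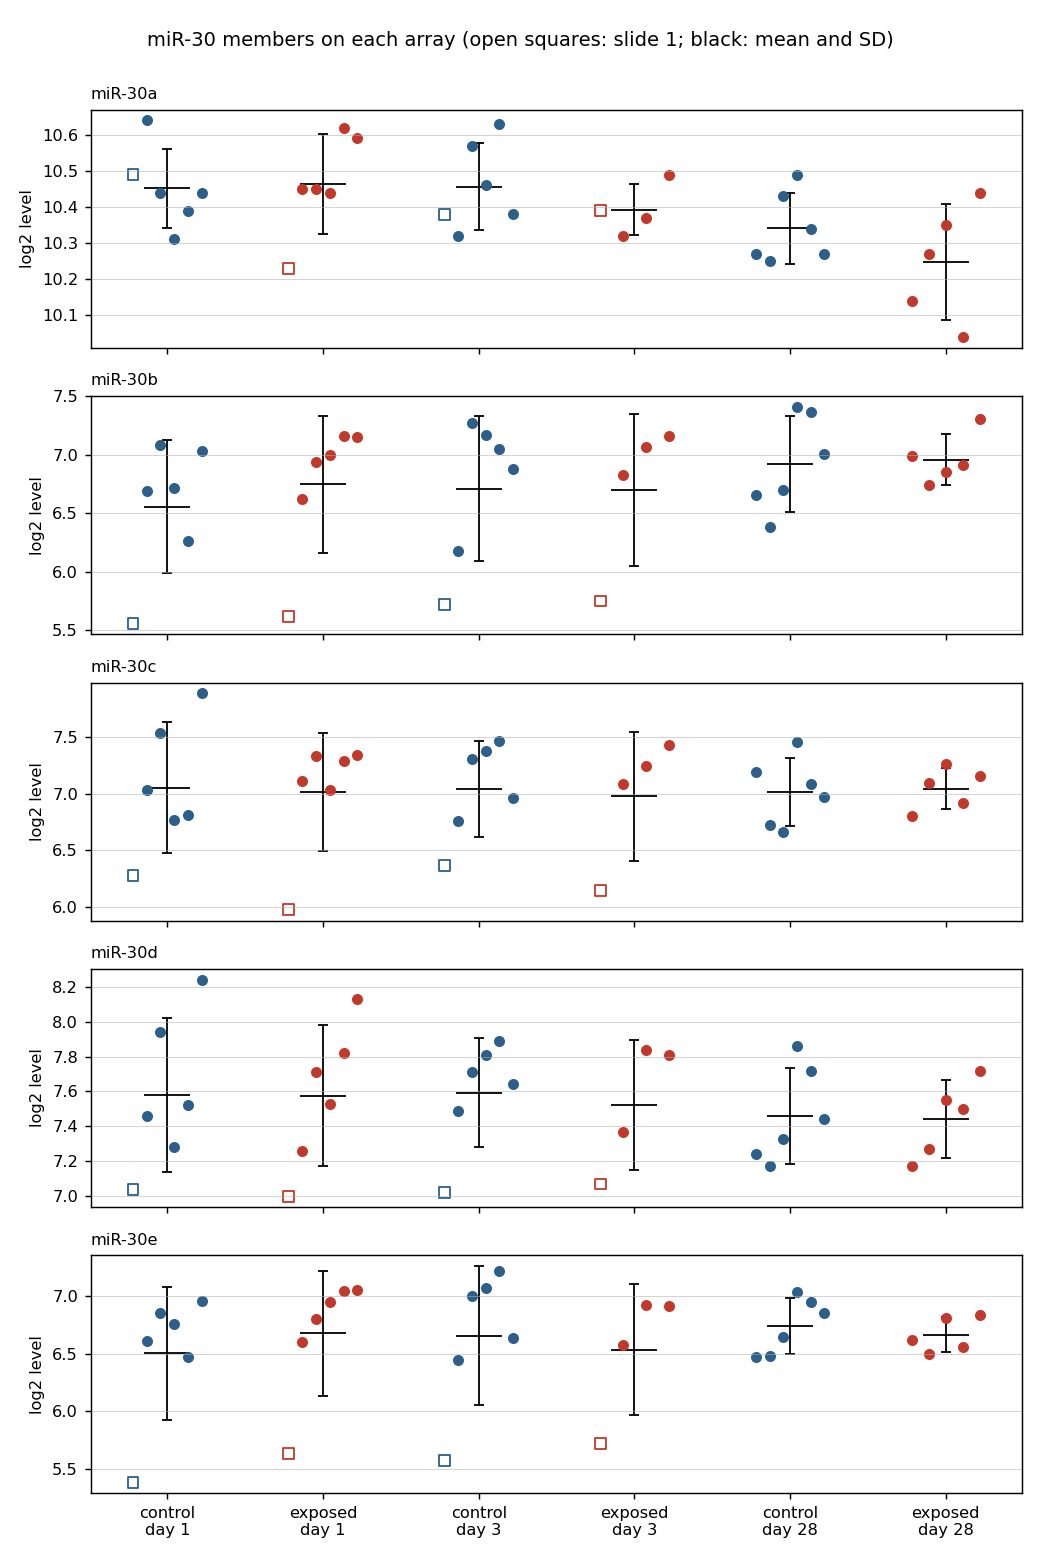
Log2 level of each miR-30 member (vertical axes, 1 panel a member, scales differ) on each of the 33 arrays by treatment and day; points are arrays, open squares the 4 arrays of slide 1, and black marks the group mean and SD. Exposed and control arrays overlap in every panel on every day, and for miR-30b, miR-30c, miR-30d and miR-30e the open squares are the lowest of their groups.

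Ordered by level, neighbouring groups lay within their spread for every member. With all arrays, group means spanned 0.21 for miR-30a, 0.40 for miR-30b, 0.07 for miR-30c, 0.15 for miR-30d and 0.23 for miR-30e. miR-30a was highest in exposed mice on day 1 (10.46 ± 0.14, SD, n = 6) and lowest in exposed mice on day 28 (10.25 ± 0.16, SD, n = 5). miR-30b was highest in exposed mice on day 28 (6.96 ± 0.22, SD, n = 5) and lowest in controls on day 1 (6.56 ± 0.57, SD, n = 6). All 25 differences between neighbours in these orders were smaller than the pooled SD of the groups involved. Neighbours in a sorted order lie close by construction, so this describes the orders and cannot show that the groups are alike. Slide 1 holds arrays of days 1 and 3 and none of day 28, and without it the spans and orders moved. The means then spanned 0.26 for miR-30a, 0.26 for miR-30b, 0.24 for miR-30c, 0.27 for miR-30d and 0.22 for miR-30e, and all 25 neighbours again lay within the pooled SD. miR-30b was then highest in exposed mice on day 3 (7.02 ± 0.17, SD, n = 3) and lowest in controls on day 1 (6.76 ± 0.33, SD, n = 5). The end groups of miR-30a were the ones found with all arrays.

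The comparison of exposed with control mice on each day asked whether carbon black changed the lung's miRNAs. No member passed the test on any day. On day 1 miR-30b was 1.14-fold and miR-30e 1.13-fold the control level, and the other members lay between 0.975- and 1.01-fold. On the log2 scale the day 1 changes were 0.01 ± 0.077 (SE) for miR-30a, 0.19 ± 0.29 for miR-30b, -0.04 ± 0.25 for miR-30c, 0.00 ± 0.19 for miR-30d and 0.17 ± 0.27 for miR-30e. On day 3 all 5 lay slightly below control, from -0.12 ± 0.30 for miR-30e to -0.01 ± 0.33 for miR-30b. On day 28 they ran from -0.09 ± 0.08 for miR-30a to 0.04 ± 0.31 for miR-30b. In lung tissue, fewer cells of a type and less RNA per cell cannot be told apart.

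With limma's moderated test and Benjamini-Hochberg adjustment over 171 miRNAs, 0 of 5 members were called on day 1, 0 of 5 on day 3 and 0 of 5 on day 28, and on each day 0% of all miRNAs tested were called. The smallest adjusted p among the members was 0.772 on day 1, 0.996 on day 3 and 0.928 on day 28, and 0 members had an unadjusted p under 0.05 on any day. Of all miRNAs tested, 9 higher and 6 lower ones had an unadjusted p under 0.05 on day 1, 2 higher ones on day 3, and 9 higher and 4 lower ones on day 28. The members' median change was 0.01, -0.06 and -0.02 on days 1, 3 and 28, beside -0.09, -0.04 and -0.03 for all miRNAs tested. The 95% intervals of the members' changes reached from 0.686- to 1.72-fold on day 1, from 0.602- to 1.58-fold on day 3 and from 0.638- to 1.58-fold on day 28.

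With slide as a block in the fit the intervals narrowed and again no member was called (0% of all miRNAs tested on each day). They then reached from 0.79- to 1.36-fold on day 1, from 0.817- to 1.36-fold on day 3 and from 0.814- to 1.28-fold on day 28. The smallest of the 15 p-values was that of miR-30e on day 1, a log2 change of 0.17 ± 0.092 (SE) with an adjusted p of 0.255 in limma. On day 3 the sign turned from below to above control for miR-30b (0.15 ± 0.14), miR-30c (0.06 ± 0.17), miR-30d (0.04 ± 0.10) and miR-30e (0.05 ± 0.11), each within its error. Without slide 1 no member was called either, against 1.17%, 0.585% and 0.585% of all miRNAs tested on days 1, 3 and 28. The members' intervals then reached from 0.784- to 1.54-fold, from 0.735- to 1.5-fold and from 0.780- to 1.35-fold, and the smallest adjusted p on days 1, 3 and 28 was 0.683, 0.972 and 0.682 in limma; over 20 alternatives it ran from 0.214, 0.823 and 0.173 up to 1.

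**Figure D2:**
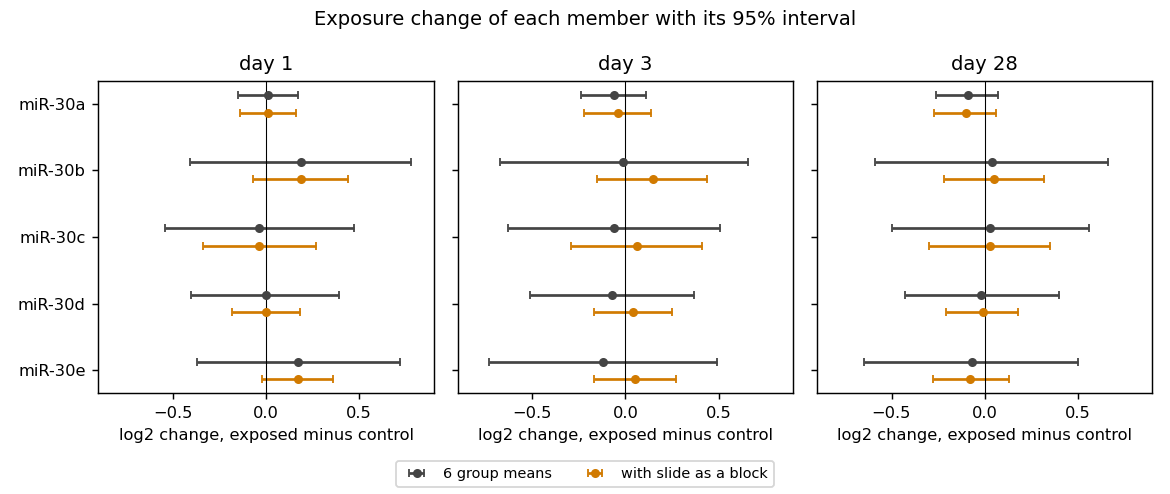
Log2 change of each member, exposed minus control (horizontal axes), on days 1, 3 and 28, from limma fits of the 6 group means (grey) and of the same means with slide as a block (orange); bars are 95% intervals. Every interval includes 0, and for miR-30b, miR-30c, miR-30d and miR-30e the orange intervals are the shorter.

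An exposed and a control array of the same day shared a slide in 15 cases, 6 on day 1, 4 on day 3 and 5 on day 28, and their differences are free of slide. miR-30e was higher in the exposed array in 4 of 6 pairs on day 1, with a median difference of 0.14 (from -0.06 to 0.58), in 3 of 4 on day 3 (median 0.14) and in 3 of 5 on day 28 (median 0.02). miR-30b was higher in 4 of 6, 3 of 4 and 3 of 5 pairs, with medians of 0.08, 0.16 and 0.15. For miR-30a the counts were 3 of 6, 1 of 4 and 2 of 5, with medians of 0.07, 0.00 and -0.08. The counts were 3 of 6, 2 of 4 and 3 of 5 for miR-30c, and 2 of 6, 3 of 4 and 2 of 5 for miR-30d. Differences that rounded to 0.00 were not counted as higher. For miR-30a these were slide 4 on day 1 (scaled signal 1396 exposed, 1392 control) and slide 1 on day 3 (1337 and 1335). For miR-30d it was slide 8 on day 28 (211 in both). No member lay wholly on one side of 0 on any day. In a fit of these differences over all miRNAs the smallest adjusted p among the members was 0.437 on day 1, 0.823 on day 3 and 0.730 on day 28 (limma), where again no member was called (0% of all miRNAs tested on each day).

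**Figure D3:**
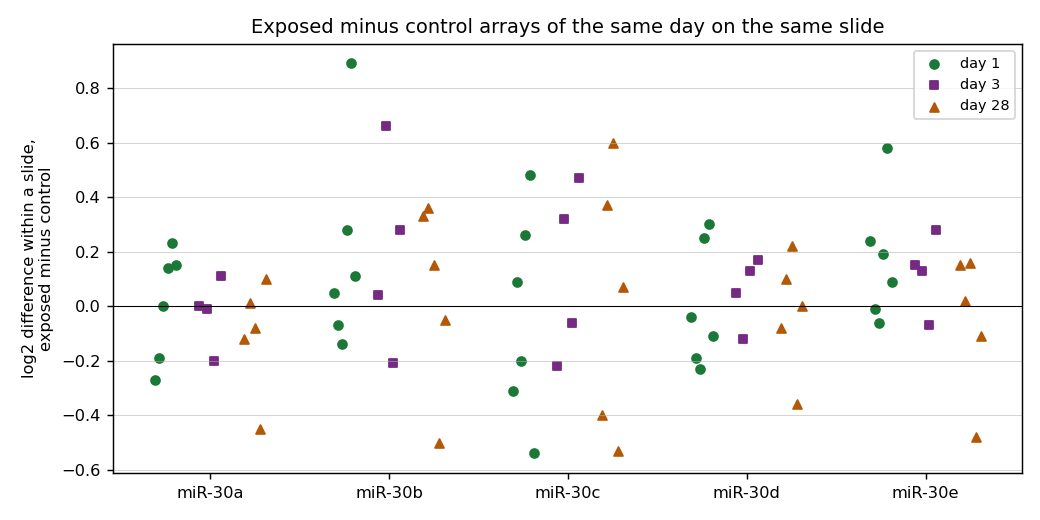
Log2 difference between an exposed and a control array of the same day on the same slide (vertical axis) for each member; circles are the 6 slides with such arrays on day 1, squares the 4 on day 3 and triangles the 5 on day 28. Differences fall on both sides of 0 for every member on every day; the highest is 0.89 for miR-30b on day 1.

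No member's exposure change differed between days past the threshold. In limma's contrasts of the exposure change, 0 of 5 members were called for day 3 minus day 1, for day 28 minus day 1 and for day 28 minus day 3 (0% of all miRNAs tested in each), with smallest adjusted p-values of 0.991, 0.930 and 0.999 and 0 unadjusted p-values under 0.05. For day 28 minus day 1, 0 of 5 members were called with normexp background correction, where 55.6% of all miRNAs were, and 5 of 5 without any scaling, where 69.6% of all were. Averaged over the 3 days the members' changes ran from -0.05 to 0.07, and 0 of 5 were called, against 0.585% of all miRNAs tested. With slide as a block 8.19% of all miRNAs were called for this mean change and again 0 members. Without slide 1 the members' mean changes ran from -0.04 to 0.12 and 0 were called, against 3.51% of all.

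Time after instillation was compared within the vehicle and within the exposed mice. From day 1 to day 28 of vehicle, 6.43% of the miRNAs tested changed by limma (11 of 171, of which 10 were lower), and 0 of 5 members were among them, with log2 changes from -0.12 to 0.37 and a smallest adjusted p of 0.345. The upper values rest on slide 1: without it miR-30b was at 0.17 in place of 0.37 and miR-30e at 0.01 in place of 0.23, the members ran from -0.23 to 0.17 with a smallest adjusted p of 0.397, and 0 members were called against 2.34% of all miRNAs (limma). Between the other control days 0 members were called, against 0% for day 3 minus day 1 and 0.585% for day 28 minus day 3. In the exposed mice miR-30a was 0.862-fold on day 28 relative to day 1 (log2 change -0.21 ± 0.08, SE, unadjusted p of 0.0121), which did not pass after adjustment (0.153, limma), nor did any other miRNA (0% called). The value of miR-30a was -0.19 ± 0.084 with slide as a block (adjusted p of 0.239, limma) and -0.26 ± 0.077 without slide 1 (adjusted p of 0.0619, limma, where 2.34% of all miRNAs were called). miR-30b, at 0.22 in this contrast with all arrays, was at -0.01 without slide 1. A second miR-30a probe gave -0.13 ± 0.18 for the same contrast, and over 19 alternatives the adjusted p of miR-30a ran from 0.0619 to 0.979 (limma). For day 3 minus day 1 of the exposed mice 0 members were called (0% of all).

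The ratio between 2 members on an array does not depend on how the array was scaled. For the 10 pairs of members, the log2 ratio differed between exposed and control mice by -0.21 to 0.22 on day 1, -0.06 to 0.11 on day 3 and -0.13 to 0.11 on day 28. All 30 differences were smaller than the SD of the ratio within groups. Without slide 1 they ran from -0.16 to 0.21, -0.19 to 0.18 and -0.13 to 0.11, and the exception to that rule was miR-30c to miR-30e on day 3, with a difference of 0.15 and an SD of 0.07.

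With slide 1 included, the slide an array came from went with most of the variation of 4 members. Slide took 89.4% of the variance over arrays for miR-30e, the highest share of 94 miRNAs above background on all arrays, 85.2% for miR-30b, 81.0% for miR-30d and 72.7% for miR-30c, against a median of 51.7%. Group took 3.43%, 7.75%, 3.52% and 0.312% of their variance, against a median of 23.2%. Without slide 1 the slide shares were 54.2% for miR-30e, 55.1% for miR-30b, 71.5% for miR-30d and 37.5% for miR-30c, against a median of 25.9%, and their group shares ran from 7.00% to 17.6%, against 28.2%. The brightest probe of miR-30a was the reverse, with 27.3% for slide and 32.9% for group over all arrays. The shares of its other probes were not taken. On slide 1 the means of those probes differed from the other arrays by -0.66 and -0.59, against -0.03 for the brightest. The contrast with the other members therefore describes that probe and cannot be given to the miRNA. The slide and group shares were taken separately, and slides and groups overlap in part, so they do not add up. With 9 slides and 6 groups, noise alone gives slide the larger share, and the shares were not adjusted for that.

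Slide 1 was the lowest of the 9 slides for 4 members. On its 4 arrays miR-30b read 5.56 to 5.75, against 6.18 to 7.41 on the other 29, a mean difference of -1.25 (0.419-fold). miR-30e read 5.38 to 5.72 there, against 6.45 to 7.22 elsewhere (0.433-fold). miR-30c read 5.98 to 6.37 against 6.66 to 7.88 (0.520-fold), and miR-30d 7.00 to 7.07 against 7.17 to 8.24 (0.675-fold). For these 4 members all arrays of slide 1, control and exposed alike, lay below all others. The brightest probe of miR-30a overlapped (10.23 to 10.49 against 10.04 to 10.64). Its second probe did not, at 8.31 to 8.48 against 8.69 to 9.41 (0.631-fold). Its faintest probe overlapped in part, at 6.02 to 6.43 against 6.22 to 7.91, with a lower mean on slide 1 (0.664-fold). Of the 11 probes of the 5 members, 7 lay wholly below on slide 1 and 11 had the lower mean there. Among the 94 miRNAs above background on all arrays, 10.6% lay wholly below on slide 1 and 13.8% wholly above, with a median shift of 0.24; miR-30b had the lowest shift of them, miR-30e the third lowest and miR-30c the 6th. Slide 1 was the only slide read on the first of 5 scan days, so slide and scan day cannot be told apart for it.

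**Figure D4:**
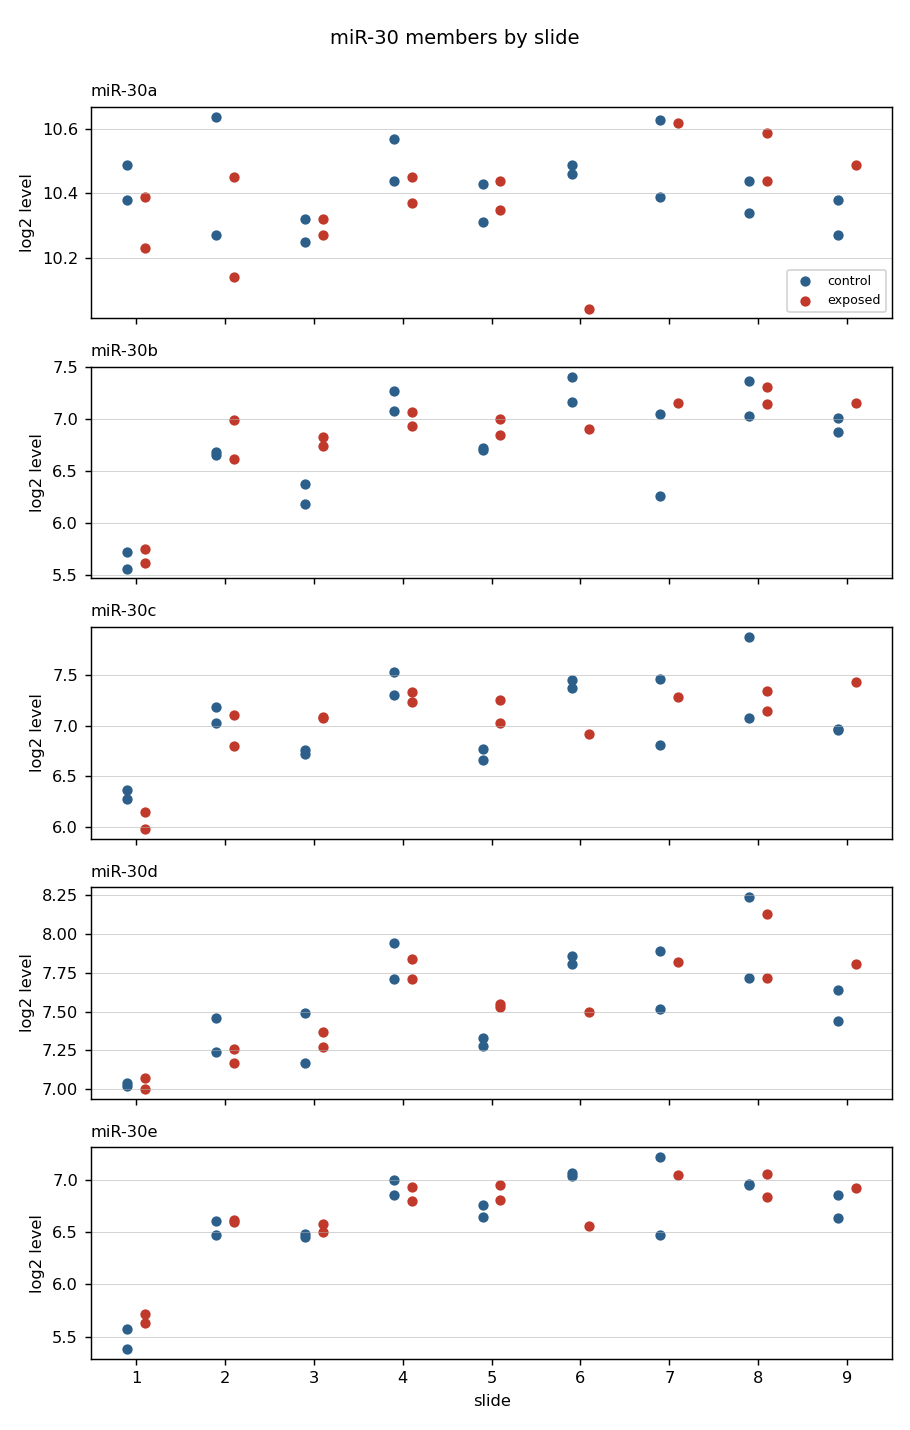
Log2 level of each member (vertical axes, scales differ) on the arrays of slides 1 to 9 (horizontal axis), with control arrays in blue and exposed arrays in red. All 4 arrays of slide 1 lie below all others for miR-30b, miR-30c, miR-30d and miR-30e, and within the range of the others for miR-30a.

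Away from slide 1 most pairs of members varied together from array to array. Over the other 29 arrays Pearson's r was 0.81 for miR-30b with miR-30e (Spearman's rho 0.85, permutation p of 1e-05 for each, the smallest that 100000 resamples can give, and adjusted p-values of 9.5e-05 and 4.75e-05 over 19 relations). It was also 0.81 for miR-30c with miR-30d (rho 0.78, permutation p of 1e-05 for each). Without the 2 arrays farthest from the median in the first-named member r was 0.78 and 0.75, and with slide means subtracted it was 0.75 and 0.78. Over the 10 pairs of members r ran from 0.32 to 0.81 and rho from 0.45 to 0.85, and 9 of 10 passed at an adjusted permutation p under 0.05 for r, miR-30a with miR-30b being the exception (r = 0.32, adjusted p of 0.127 by permutation). These permutations treat the arrays as exchangeable across slides. With slide means subtracted and arrays permuted within slides, 6 of 10 pairs passed after adjustment over the same 19 relations. miR-30c with miR-30d (adjusted permutation p of 0.00399) and miR-30b with miR-30e (0.00608) were among them, and miR-30a with miR-30b (0.266), miR-30a with miR-30c (0.0535), miR-30b with miR-30c (0.149) and miR-30b with miR-30d (0.446) were not. Removing slide means lowered r for the neighbouring genes' products miR-30b and miR-30d from 0.61 to 0.18. miR-30a and miR-30e, which differ by C13U, had an r of 0.61 (rho 0.65, adjusted permutation p-values of 0.00136 and 0.000549), 0.61 without the 2 farthest arrays and 0.59 with slide means subtracted (adjusted within-slide permutation p of 0.0412). These points share the scaling of their arrays, and how many pairs of other miRNAs would pass was not tested. Correlations this high were not confined to the family. Over the same 29 arrays the best of 89 other miRNAs reached 0.88 with miR-30e (miR-26a) and 0.86 with miR-30d (miR-181a). Array brightness correlated with miR-30c at r = -0.45 (rho -0.30; adjusted permutation p-values of 0.0241 and 0.167), which became -0.12 without the 2 farthest arrays and so rests on them. With slide means subtracted it was -0.48, which did not pass in permutations within slides (adjusted p of 0.068). With the other 4 members the r of brightness ran from -0.38 to 0.18 and did not pass after adjustment. Each level had been divided by this same brightness, so brightness and level share a term by construction. The permutations do not allow for that, so these tests cannot show whether brightness went with a member.

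The passenger strands, cut from the other arm of the same hairpins and usually degraded, gave a second readout of the same genes. The array lists 5 of them. miR-30a* and miR-30e* were above background on all 33 arrays, miR-30c-2* on 32, miR-30b* on 18 and miR-30c-1* on 0. The hairpin of Mir30c-2 is shown with both mature arms in capitals, miR-30c-5p first, because the signals of miR-30c and miR-30c-2* parted on slide 1. The signal of miR-30c also includes the product of Mir30c-1, so whether the arms of this hairpin itself parted cannot be told.
Mir30c-2 hairpin (chr1:23291701-23291784, plus strand): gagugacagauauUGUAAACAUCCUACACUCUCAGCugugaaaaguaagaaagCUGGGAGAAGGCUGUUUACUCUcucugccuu
On slide 1 miR-30c, from both genes, was 0.520-fold the mean of the other arrays. The 3p arm of Mir30c-2, miR-30c-2*, was 1.54-fold, with 5.08 to 5.65 on slide 1 against 4.19 to 5.10 elsewhere. The log2 ratio of miR-30c to miR-30c-2* was thus 1.57 lower on slide 1 (difference -1.57), that of miR-30b to miR-30b* 1.95 lower (-1.95) and that of miR-30e to miR-30e* 0.78 lower (-0.78), while that of miR-30a to miR-30a* differed by 0.09.

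Exposure moved none of the 4 passenger strands tested past the threshold on any day (limma, 0 with an unadjusted p under 0.05). miR-30c-2* changed by -0.19 ± 0.15 (SE), -0.06 ± 0.16 and -0.15 ± 0.15 on days 1, 3 and 28, and miR-30a* by -0.14 ± 0.13, 0.01 ± 0.14 and -0.04 ± 0.13. Their median change was -0.16, 0.00 and -0.15, beside -0.09, -0.04 and -0.03 for all miRNAs tested. From day 1 to day 28 of vehicle all 4 were lower, from -0.38 to -0.13, with 2 unadjusted p-values under 0.05 and 0 of 4 called, against 6.43% of all miRNAs. All 4 were called in this contrast under normexp background correction, where 73.7% of all miRNAs were called and their median was -0.63, and without any scaling, where they were higher, 83% of all were called and the median was 1.02. Without control replicate 17 of day 1, 2 of 4 were called, against 12.3% of all. Over the 29 arrays off slide 1, r between a member and its passenger was 0.50 for miR-30c with miR-30c-2* (rho 0.42, adjusted permutation p-values of 0.00992 and 0.0366), 0.44 for miR-30a with miR-30a* (rho 0.55, adjusted 0.0278 and 0.00448 by permutation), 0.22 for miR-30e (rho 0.18, adjusted 0.338 and 0.458 by permutation) and 0.05 for miR-30b (rho 0.13, adjusted 0.848 and 0.544 by permutation). Leaving out the 2 farthest arrays gave 0.50, 0.38, 0.28 and 0.24. In permutations within slides the adjusted p was 0.0223 for miR-30c (r = 0.55 with slide means subtracted) and 0.0651 for miR-30a (r = 0.39). miR-384-5p, with the same seed, was above background on 0 arrays.

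Outside the family, the miRNA most like it over all 33 arrays was miR-26a. Of the 89 other miRNAs above background on all arrays, passenger strands included, it had the highest Pearson correlation with miR-30b, miR-30c and miR-30e, and with the mean of the 5 centred members. Because slide 1 forms a cluster of its own, the correlations are given over the other 29 arrays, as a description. There miR-26a correlated at 0.88 with miR-30e and 0.84 with miR-30b, the highest of the 89 for each, and at 0.54 with miR-30c, the 8th highest. miR-181a, which is known for its part in lymphocyte development, was highest for miR-30d (0.86) and for the mean of the members (0.86), with miR-26a next for that mean (0.85). miR-30a was most like miR-365 over all arrays (0.65 over the 29, the second highest) and next most like miR-126-3p, a miRNA of endothelial cells (0.61). The rest of the miRNAs among the 3 most like a member over all arrays were miR-16, miR-140*, miR-143 and miR-30e*, the last for miR-30c (0.72 over the 29 arrays). miR-125b-5p, close to miR-30e over all arrays, correlated at 0.50 off slide 1.

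Of the marker lists, those of myeloid cells (miR-142-3p, miR-142-5p and miR-223) had a median exposure change of 0.51 on day 1, with 3 of 3 higher, 1 unadjusted p under 0.05 and 0 called. On day 1 the endothelial pair had a median of 0.15, with 1 higher (0.35) and 1 lower (-0.06). The epithelial list, with 7 of 8 tested, had a median of 0.17 on day 1, with 4 higher and 3 lower. In each of these 0 were called. On days 3 and 28 the myeloid median was 0.02 and 0.15 (2 and 3 of 3 higher). The endothelial was 0.21 and 0.03 (2 and 1 of 2 higher), and the epithelial -0.08 and -0.04 (2 and 3 of 7 higher). On day 28 the epithelial list had 1 unadjusted p under 0.05 (limma). The erythroid list had medians of -0.02, 0.46 and -0.20 on days 1, 3 and 28, with 1 unadjusted p under 0.05 on day 3 (limma). Heart and skeletal muscle miRNAs, with 3 of 5 tested, had medians of 0.64, -1.35 and -1.35. Of these, 3 of 3 were higher on day 1 and 3 of 3 lower on days 3 and 28. Of the 5 listed, 0 were above background on every array and 3 on some arrays. Their summed log2 level ran from 4.87 to 10 within the day 1 controls alone. In all these lists 0 were called on any day. The part of such cells in the levels of the miR-30 family was not tested.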

How the data were processed

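The deposited scanner files give linear spot intensity, read by Feature Extraction 10.7.3.1 with background subtracted within the array, per the file headers. A value table that the authors deposited holds log2 values, and the sources used here do not say how they were centred. Against each array's log2 median signal its columns had an r of 0.985 to 0.993, brighter meaning higher, and its column medians ran from 5.41 to 5.43, so it served as an alternative only. Control spots and spots with outlier flags (2.3%) were left out, and 0 probes were saturated. Processed signals were averaged per probe, scaled to their 75th percentile across 156 probes that every one of the 33 arrays detected, floored at 1 and log2-transformed. Each miRNA was represented by its brightest probe. A miRNA entered the tests if some group had 4 or more arrays with it above background. Depth does not apply to arrays, and their number limits the precision.

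Groups came from the sample labels. Replicate numbers run through the series and pair no samples; the design names individual mice, so arrays were treated as animals. A linear model of 6 group means was fitted to all 171 miRNAs in R 4.3.3 with limma 3.58.1 and the package data.table (1.17.8), with an intensity trend, two-sided, adjusted within each of 12 contrasts at a threshold of 0.05, and checked on simulated data. Correlations used Python 3.11.15 (numpy 2.4.6, scipy 1.17.1, pandas 2.3.3; figures with matplotlib 3.10.9). Normexp, planned on the mean signal, used the median signal with an offset of 50, because the files used here carry no mean signal column. Alternatives covered background, scaling, probe choice, floor, filter, slide, scan day, the fit and leaving out each array. Correlations, group orders, variance shares and ratios without slide 1, permutations within slides and the spread of second probes were chosen after seeing the data. Sequences are RefSeq's (GRCm38). The named miRNAs were the members, their passenger strands, miRNAs of the same seed, the 3 most correlated with each member and the 5 most correlated with their mean. Members and lists were chosen with earlier results of these data known.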

Additional observations from a re-analysis of the deposited data

Results flagged for a closer look

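In 4 of 54 tests of a group for a single distant array (Dixon's test at 95%, which flags about 1 group in 20 by chance), an array stood apart, and all 4 were arrays of slide 1. In exposed mice of day 1, replicate 3 read 5.62 for miR-30b (the others 6.62 to 7.16), 5.98 for miR-30c (7.03 to 7.34) and 5.63 for miR-30e (6.60 to 7.06). In controls of day 1, replicate 1 read 5.38 for miR-30e, where the others read 6.47 to 6.96. Both arrays also gave the lowest value of their group for miR-30d, at 7.00 and 7.04. The log2 change of miR-30e on day 1 was 0.17 ± 0.27 (SE) with all arrays and 0.16 ± 0.14 without slide 1.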

How the results depend on the processing

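No member passed the threshold in any exposure comparison of a single day under any of 20 alternatives or of 33 fits that left out 1 array each. Without scaling, all 5 passed for the exposure change from day 1 to day 28 (median -1.38) and all 5 for vehicle day 28 minus day 1 (median 1.15). Unscaled medians were also 0.67 (exposure, day 1), -0.63 (day 28), -0.81 (exposure change, day 3 minus day 1), -0.5 (day 28 minus day 3), 0.68 (vehicle, day 3 minus day 1) and 0.5 (day 28 minus day 3). The median of all miRNAs moved too: it was 0.57, -0.11 and -0.65 on days 1, 3 and 28, and the members' median lay 0.10, -0.03 and 0.02 from it, as with scaling. Scaling divides each array by 1 factor, so apart from the floor this gap stays the same by construction. Normexp moved the median of all to -0.36 on day 1 and 0.27 on day 28, and the percentile over all probes moved it to 0.09 and -0.28. The number of all miRNAs called for vehicle day 28 minus day 1, 11 here, was 126 with normexp, 142 unscaled, 0 with quantile normalization and 18 with slide as a random block (consensus correlation 0.36). Over the alternatives, at most 6 of all miRNAs were called for exposure on day 1 and at most 1 on days 3 and 28, up to 14 for the mean exposure change (1 here), up to 6 for vehicle day 28 minus day 3 (1 here), up to 9 for exposed day 28 minus day 1 and up to 119 for the exposure change from day 1 to day 28 (0 here).

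Exposure changes near 0 turned sign as follows. On day 1, miR-30b turned to -0.13 and miR-30e to -0.16 with normexp, and miR-30c to 0.62 unscaled, 0.15 with all probes, 0.027 with the second brightest probe and 0.017 without slide 1. miR-30d on day 1 became 0.027 (series table), 0.019 (mean over probes), 0.024 (percentile without members' probes), 0.66 (unscaled), 0.025 (median scaling), 0.18 (all probes), 0.0082 (quantile), 0.051 (second probe) and 0.003 (without slide 1). On day 3, miR-30b became 0.13 with scan day as a block, 0.023 with the mean over probes, 0.06 with total gene signal, 0.018 with median scaling, 0.15 with a fixed and 0.089 with a random slide block, 0.27 with the second probe, 0.11 without slide 1 and 0.19 within slides. miR-30c on day 3 became 0.054 (scan day), 0.00044 (series table), 0.0079 (total gene signal), 0.06 and 0.015 (slide fixed and random), 0.2 (second probe), 0.083 (without slide 1) and 0.13 (within slides). With scan day, fixed slide and within slides, miR-30d became 0.031, 0.038 and 0.058 and miR-30e 0.028, 0.047 and 0.12. On day 28, miR-30a became 0.14 (series table) and 0.0089 (median scaling). miR-30b became -0.58 (unscaled), -0.21 (all probes) and -0.0081 (quantile), and miR-30c -0.58 and -0.21 under the first of these. miR-30d became 0.025 (scan day), 0.034 (series table), 0.077 (normexp), 0.028 (total gene signal), 0.084 (median scaling) and 0.045 (quantile), and miR-30e 0.11 (normexp) and 0.029 (median scaling). The cause was not tested.

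Leaving out 1 array gave, on day 1, -0.022 to 0.056 for miR-30a, -0.011 to 0.41 for miR-30b, -0.19 to 0.17 for miR-30c, -0.11 to 0.13 for miR-30d and -0.052 to 0.38 for miR-30e. On day 3 it gave -0.21 to 0.31 for miR-30b, -0.21 to 0.22 for miR-30c, -0.19 to 0.08 for miR-30d and -0.34 to 0.15 for miR-30e, and on day 28 -0.069 to 0.14 for miR-30b, -0.039 to 0.12 for miR-30c and -0.09 to 0.06 for miR-30d. By replicate number, no paired analysis was possible because each number names 1 array of the series and none occurs in more than 1 group; arrays were paired by shared slide instead.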
